A study of Mus musculus with 16 samples.

Results

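Tnmd, Kera, Scx, Mkx and Thbs4 are 5 genes of tendon and ligament, tissues that lie beside the cartilage of the knee. All 5 were among the 13733 genes listed for 16 bulk RNA-seq libraries of mouse knee joint cells, and all 5 passed the filter on low values that left 13173 genes for testing. The 5 were taken as a named group because of the rise of Tnmd and Kera in Trem2-/- over WT joints at D7. This rise was ranked among genes of at least 5 CPM (counts put on one library size, TMM-normalized) whose groups did not overlap. The ranked genes also had to be called higher by the study's rule on unadjusted p and fold change, which is given below. Among them Tnmd and Kera had the third and second largest rise. Of the 59 genes that met those conditions, Cxcl5 stood first at a log2 difference of 1.77, followed by Kera at 1.51, Tnmd at 1.41, Mfap4 at 1.17 and Col7a1 at 0.92. Scx, Mkx and Thbs4 were not among the 59 and joined the group as genes of the same tissue. The differences between Trem2-/- and WT joints at D7 therefore chose the members and are given below without a test, as is every difference that contains the D7 mice of 1 genotype only.

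Trem2 is a surface receptor of macrophages and other myeloid cells. The 4 groups held 4 mice each and came from male C57BL/6 (WT) mice and from Trem2-/- mice (the line C57BL/6J-Trem2em2Adiuj/J), which lack the receptor in every cell. D0 joints were uninjured. D7 joints were taken 7 days after the right knee of 10-week-old mice had been overloaded by tibial compression, which ruptures the anterior cruciate ligament. The labels also give an age of 16 weeks and an extraction from homogenized whole joints of another mouse model, while the study's methods describe cells released from the joint by enzyme after skin and muscle were dissected away. For how the cells were obtained, the methods point to the single-cell part of the study, in which immune cells were set apart with magnetic beads against CD45. Which fraction or mixture went into these libraries is not stated. No label says that replicates of a group came from separate extractions or days. In bulk libraries, fewer cells of a type and less RNA per cell cannot be told apart.

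Tendon and ligament are built by fibroblasts, often called tenocytes, that lay down parallel bundles of collagen. Scleraxis, the product of Scx, and Mohawk, the product of Mkx, are transcription factors of this lineage, and Scx is known to drive Tnmd. Tenomodulin, from Tnmd, is a membrane glycoprotein and the customary marker of mature tendon cells. Keratocan, from Kera, is a small leucine-rich proteoglycan first described in the cornea, where it spaces collagen fibrils, and it is also made in tendon. Thrombospondin-4, from Thbs4, is a secreted matrix glycoprotein abundant at muscle-tendon junctions and in tendon sheaths. None of these genes is a usual product of macrophages.

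In GRCm38 (mm10) with the GENCODE M21 annotation, Tnmd lies on the forward strand of chromosome X from 133850980 to 133865577, and Kera on the forward strand of chromosome 10 from 97606879 to 97613692. Scx lies on chromosome 15 from 76457452 to 76459458, inside Bop1, a ribosome biogenesis gene of the opposite strand, with no shared exon bases. Thbs4 lies on the reverse strand of chromosome 13 from 92751590 to 92794818.

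The bases just upstream of Tnmd and Thbs4 are shown because they are the members with an upstream stretch to print and because Scx binds E-boxes, the 6-base motif CANNTG. They come from RefSeq on GRCm38.p6, in which 3 of the 5 genes had an entry, and are printed in the direction of transcription, ending at the base before the annotated gene. The Tnmd stretch is chrX:133850758-133850979 on the forward strand (222 bases), and the Thbs4 stretch is chr13:92794819-92795068 on the reverse strand (250 bases). Capitals mark the E-box.
Tnmd: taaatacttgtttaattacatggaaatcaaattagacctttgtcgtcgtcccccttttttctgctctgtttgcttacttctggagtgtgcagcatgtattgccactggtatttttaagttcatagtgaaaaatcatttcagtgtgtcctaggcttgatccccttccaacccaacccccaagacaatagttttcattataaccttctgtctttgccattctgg
Thbs4: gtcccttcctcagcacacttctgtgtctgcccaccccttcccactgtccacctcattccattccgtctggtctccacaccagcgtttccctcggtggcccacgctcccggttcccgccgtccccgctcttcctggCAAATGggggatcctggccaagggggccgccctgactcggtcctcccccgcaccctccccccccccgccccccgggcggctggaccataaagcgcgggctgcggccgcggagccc
The Tnmd stretch held 0 E-boxes on either strand and the Thbs4 stretch held 1, where 62.2% and 66.0% of 27025 promoters held at least 1 in windows of the same place and length. The TATA box TATAAA was in neither stretch, against 10.5% and 13.0% of promoters. The Smad-binding letters CAGAC, read on both strands, matched 0 times in the Tnmd stretch and 2 times in the Thbs4 stretch, against 38.7% and 42.1% of promoters with a match. A match is a description of the letters and not of a bound site.

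Before the members, the libraries were checked. Reads on listed genes ranged from 11567073 to 32867818 per library (median 16399898), and the lowest member value rested on 38 reads for Scx and 44 for Mkx. Trem2 itself was 10.7 to 22.5 CPM in WT D7 libraries and 3.42 to 4.84 in Trem2-/- D7 libraries. At D0 it was 2.51 to 5.61 in WT and 0.948 to 2.68 in Trem2-/- libraries, so that the groups overlapped by 1 value on each side. One library stood apart for the members. WT D0 replicate 2 was the lowest of its group for all 5 genes, and values against WT D0 are given with and without it where it moves them.

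Tnmd, the tenocyte marker, was lowest in uninjured Trem2-/- joints and highest in injured ones. In WT D0 joints it was 104, 15.7, 78.5 and 111 CPM, and in WT D7 joints 65.7, 176, 80.9 and 146 CPM. In Trem2-/- joints it was 31.7, 40.2, 30.3 and 54.1 CPM at D0 and 379, 274, 290 and 233 CPM at D7. The 4 Trem2-/- D7 values lay above all 12 others, and the WT D0 and WT D7 values ran through each other. Group means were 77.3 ± 43.4 (SD, n = 4) CPM at WT D0, 117 ± 52.6 at WT D7, 39.1 ± 11.0 at Trem2-/- D0 and 294 ± 61.4 at Trem2-/- D7.

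Kera followed the same order of groups. It was 49.5, 11.5, 51.2 and 49.1 CPM in WT D0 joints and 38.4, 65.6, 82.3 and 117 CPM in WT D7 joints. WT D0 replicates 1, 3 and 4 were close together and replicate 2 lay far below them. In Trem2-/- D0 joints Kera was 18.3, 18.7, 19.5 and 17.9 CPM, a spread of 0.681 CPM (SD, n = 4) around a mean of 18.6 CPM. At Trem2-/- D7 it was 193.3, 159, 266.4 and 201.2 CPM, again above all 12 other libraries. The mean of 205 ± 44.9 (SD, n = 4) CPM there compared with 75.7 ± 32.7 at WT D7 and 40.3 ± 19.2 at WT D0.

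Scx, the lineage transcription factor, was a low-level gene in uninjured joints. Its values were 7.23, 2.34, 4.31 and 11.4 CPM at WT D0 and 15.5, 33.2, 13.8 and 13.4 CPM at WT D7, so that every injured WT joint lay above every uninjured one. They were 2.55, 3.60, 3.70 and 5.25 CPM at Trem2-/- D0 and 46.1, 28.9, 33.0 and 29.9 CPM at Trem2-/- D7. WT D7 replicate 2, at 33.2 CPM, was inside the Trem2-/- D7 range, while the other WT D7 joints were at most 15.5 CPM. Bop1, which surrounds Scx, had means of 35.4 CPM at WT D0, 42.8 at WT D7, 34.3 at Trem2-/- D0 and 47.7 at Trem2-/- D7.

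Mkx, the other transcription factor, lies on the reverse strand of chromosome 18 from 6934518 to 7004780, and its exons overlap those of AC148004.2 on the same strand, so reads of this pair could be split or lost in counting. It was 12.55, 3.49, 8.35 and 12.25 CPM at WT D0 and 5.78, 8.72, 8.24 and 18.17 CPM at WT D7, and these groups overlapped throughout. It was 2.96, 4.04, 4.89 and 5.41 CPM at Trem2-/- D0 and 13.00, 12.13, 17.47 and 13.85 CPM at Trem2-/- D7. The highest single value of all 16 belonged to WT D7 replicate 4, not to a Trem2-/- joint.

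Thbs4 was by far the most abundant member. It was 1610, 325.7, 1347 and 1691 CPM at WT D0 and 995.3, 1977, 955.6 and 1971 CPM at WT D7, where the 4 mice fell into a low and a high pair. It was 496.3, 753.5, 600.6 and 1212 CPM at Trem2-/- D0 and 1792, 1945, 2332 and 2675 CPM at Trem2-/- D7. The high pair of WT D7 mice, replicates 2 and 4, reached into the Trem2-/- D7 range. Those replicates were also the upper pair for Tnmd.

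**Figure D1:**
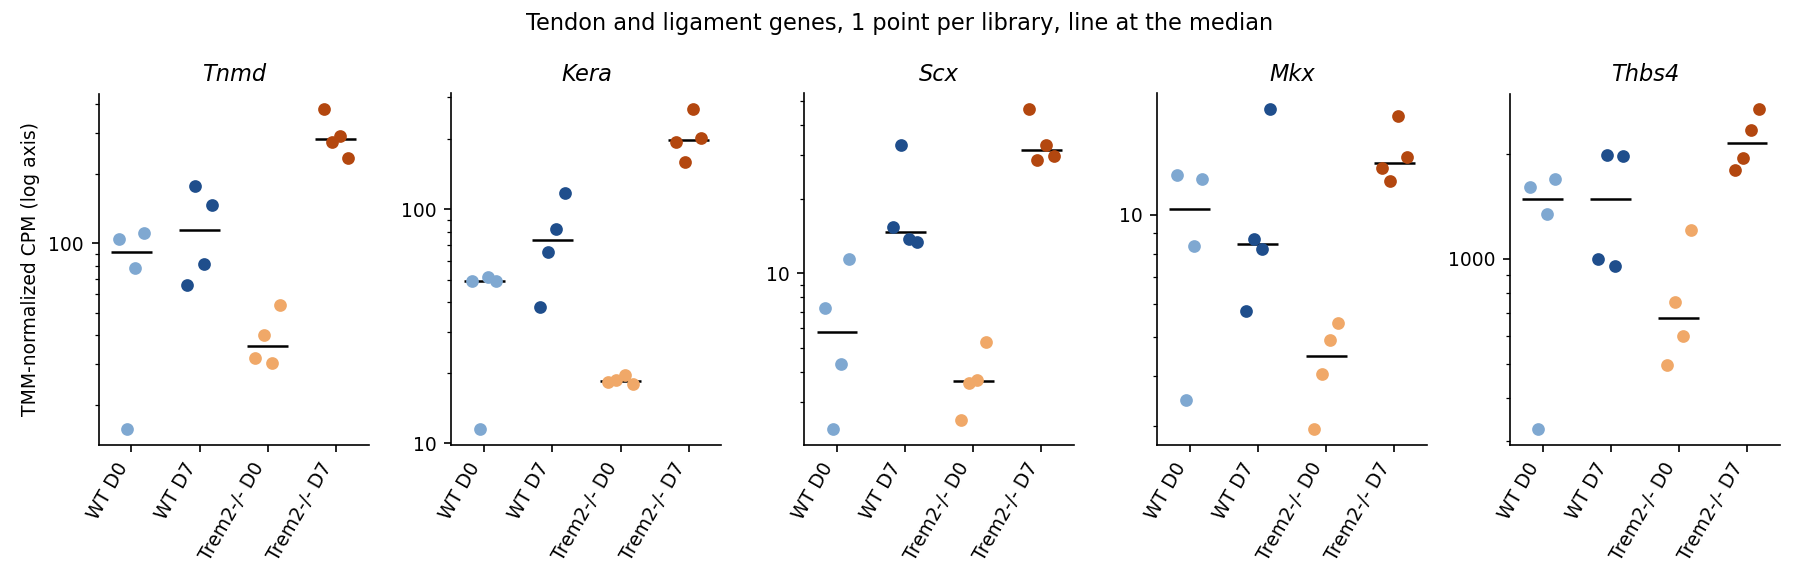
TMM-normalized CPM (log axis, a scale of its own per gene) of Tnmd, Kera, Scx, Mkx and Thbs4 in each of the 16 libraries, with 4 points per group and a line at the group median. The Trem2-/- D7 points sit above all others for Tnmd and Kera, and WT D0 replicate 2 is the lowest point of its group in every panel (15.7 CPM for Tnmd, 11.5 CPM for Kera).

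By group mean, each of the 5 genes ran from Trem2-/- D0 through WT D0 and WT D7 to Trem2-/- D7. Neighbours in that order were not separated in most cases. Trem2-/- D0 and WT D0 overlapped for all 5 genes, WT D0 and WT D7 for all but Scx, and WT D7 and Trem2-/- D7 for all but Tnmd and Kera. Between the D0 groups, the overlap of Tnmd, Kera, Mkx and Thbs4 came from WT D0 replicate 2 alone. Between genes, levels were compared as CPM per kilobase of exon. In Trem2-/- D7 joints the mean was 665 CPM per kilobase for Thbs4, 217 for Tnmd, 89.9 for Kera, 17.2 for Scx and 3.45 for Mkx, and the order of the genes was the same in the other 3 groups.

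The first comparison the design allows as a test is injury, averaged over both genotypes with limma. The average weights both genotypes alike, so the D7 difference that chose Tnmd and Kera does not enter it. The choice also used p and separation at D7, which depend on the spread between mice. That spread (SD of log2(CPM + 1) at D7) was 0.67 in WT and 0.29 in Trem2-/- joints for Tnmd, and 0.66 and 0.31 for Kera. The p-values of Tnmd and Kera are therefore not fully independent of the choice. Calls followed the rule of the study, which asks for p under 0.05 before adjustment and a minimum fold change, here a log2 difference of more than 0.32 in size. All 5 members were called higher at D7. This direction was called for 25.5% of all tested genes, and 29.1% passed it at an adjusted p-value under 0.05 (Benjamini-Hochberg, limma). The fold changes on the log2(CPM + 1) scale were largest for Scx and Kera. Scx rose 4.61-fold, a log2 difference of 2.20 (standard error 0.25, adjusted p = 5.75e-06). Kera rose 4.53-fold, a log2 difference of 2.18 (standard error 0.28, adjusted p = 1.46e-05). Tnmd rose 3.59-fold, a log2 difference of 1.85 (standard error 0.34, adjusted p = 0.000294). Mkx rose 1.79-fold (log2 difference 0.84, standard error 0.24, adjusted p = 0.00675) and Thbs4 1.99-fold (0.99, standard error 0.32, adjusted p = 0.0144). An exact two-sided permutation test of the averaged difference, with injury labels exchanged within each genotype over 4900 assignments, gave p = 0.000408 for Scx, the smallest value it can give, 0.00204 for Kera, 0.00449 for Tnmd, 0.0188 for Mkx and 0.0216 for Thbs4. The median log2 difference over all tested genes was -0.05. Without WT D0 replicate 2 all 5 were still called, with log2 differences of 1.53 for Tnmd, 1.93 for Kera, 2.04 for Scx, 0.66 for Mkx and 0.71 for Thbs4.

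The average does not say that injury acted alike in both genotypes, and the mice of each genotype are given side by side as a description. In WT joints the log2 difference between D7 and D0 was 1.51 for Scx, 0.99 for Kera, 0.80 for Tnmd, 0.41 for Thbs4 and 0.16 for Mkx, and the groups were separated for Scx alone, against 12.9% of all tested genes separated in that direction. The WT values of Tnmd and Kera leaned on WT D0 replicate 2, and without it they were 0.16 for Tnmd and 0.48 for Kera, while those of Thbs4 and Mkx turned to -0.15 and -0.19. In Trem2-/- joints the difference was 3.37 for Kera, 2.90 for Scx, 2.89 for Tnmd, 1.58 for Thbs4 and 1.52 for Mkx, and all 5 genes were separated, against 26.1% of all tested genes. The gap between these differences, that is the interaction of genotype and injury, was 2.38 (standard error 0.56) for Kera and 2.10 (0.68) for Tnmd, and 1.17 to 1.39 for Scx, Mkx and Thbs4. Without WT D0 replicate 2 it was 2.89 for Kera, 2.73 for Tnmd and 1.71 to 1.73 for the other 3. It combines a higher level at D7 with a lower mean at D0 in Trem2-/- joints.

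The D7 part of that gap is the difference that selected the members. Between Trem2-/- and WT joints at D7 the log2 difference was 1.51 (standard error 0.39) for Kera and 1.41 (0.48) for Tnmd, with no overlap. It was 0.91 (0.35) for Scx, 0.64 (0.45) for Thbs4 and 0.53 (0.34) for Mkx, all with overlapping groups. Among all tested genes, 3.55% had every Trem2-/- D7 value above every WT D7 value and 1.18% were called higher. Leaving out any 1 of the 16 libraries kept the value between 1.17 and 1.64 for Tnmd and between 1.22 and 1.75 for Kera.

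**Figure D2:**
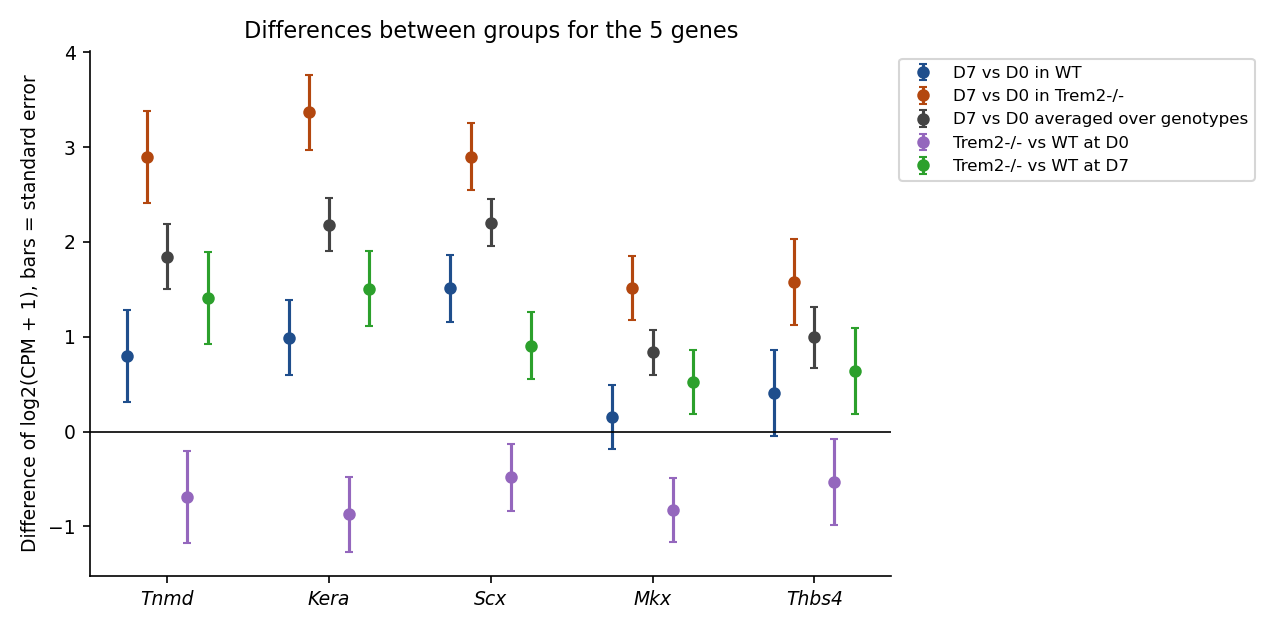
Differences of log2(CPM + 1) between groups for the 5 genes (points) with their standard errors from the limma fit (bars). The D7 vs D0 difference in Trem2-/- joints is the highest point for every gene (3.37 for Kera), the difference between genotypes at D7 is positive for every gene, and that at D0 is negative for every gene (-0.87 for Kera).

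The second test was of the genotypes in uninjured joints, a difference that the choice of members did not use. All 5 genes had the lower mean in Trem2-/- joints, with log2 differences of -0.87 for Kera (standard error 0.39), -0.83 for Mkx (0.34), -0.69 for Tnmd (0.48), -0.53 for Thbs4 (0.45) and -0.48 for Scx (0.35). By the rule of the study Kera and Mkx were called lower and the other 3 were not. The same rule called 2.15% of all genes in either direction, and after adjustment limma called 0 of 13173 genes, with an adjusted p of 0.9996 for each member. Of those genes 385 had an unadjusted p under 0.05, and edgeR and voom also called 0 after adjustment. All groups overlapped, and exact permutation of the 8 mice (two-sided, 70 assignments) gave p = 0.143 for Kera and 0.114 for Mkx. Without WT D0 replicate 2, only Scx still overlapped. The lowest remaining WT and highest Trem2-/- values were 78.5 and 54.1 CPM for Tnmd, and 49.1 and 19.5 for Kera. They were 8.35 and 5.41 CPM for Mkx, and 1347 and 1212 for Thbs4. The share of all genes separated in this way is not given here. The calls rested on single libraries. Without WT D0 replicate 2 all 5 genes were called, with log2 differences of -1.38 for Kera, -1.32 for Tnmd, -1.18 for Mkx, -1.09 for Thbs4 and -0.80 for Scx and adjusted p from 0.148 to 0.399 (limma). In that fit 30 of the 52 other tendon and ligament genes described below were also called, beside 8 in the reported fit. The share of all genes called in it is not given here. Without WT D0 replicate 1, WT D0 replicate 4 or Trem2-/- D0 replicate 1 no member was called. Other omissions also moved the calls: the number of members called stayed at or close to 2 in 5 of the 16 fits that left out 1 library.

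Across all 16 libraries, which differ mostly by group, Pearson's r of log2(CPM + 1) ranged from 0.76 for Scx with Mkx to 0.95 for Tnmd with Kera among the 10 pairs of members. Within groups, after each group's mean was removed, r ranged from 0.40 for Kera with Scx to 0.91 for Tnmd with Thbs4, and much of this came from WT D0 replicate 2. Without that library the within-group r ranged from -0.15 for Kera with Scx to 0.78 for Kera with Mkx, and was 0.38 for Tnmd with Kera and 0.75 for Tnmd with Thbs4. Single groups of 4 differed in sign: Tnmd with Thbs4 had r = 0.96 at both WT D7 and Trem2-/- D0 but -0.83 at Trem2-/- D7, and Tnmd with Kera had r = -0.71 at Trem2-/- D0 and 0.018 at Trem2-/- D7. These points share a library, its depth and its cell composition. The ratio of Tnmd to Kera CPM had a median of 1.82 at WT D0, 1.48 at WT D7, 1.94 at Trem2-/- D0 and 1.44 at Trem2-/- D7, and the ranges of all 4 groups overlapped.

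The genes whose pattern over the 16 libraries was most like that of Tnmd, among 10547 genes of at least 5 CPM, were Ube2e2, Tmem59, Laptm4a, Itm2c and Nme2, with r from 0.95 to 0.96, and within groups from 0.86 to 0.93 with all libraries and from 0.53 to 0.81 without WT D0 replicate 2. None of them is a tendon gene by name. Tmem59, for example, had means of 95.0 CPM at WT D0, 115 at WT D7, 89.2 at Trem2-/- D0 and 142 at Trem2-/- D7. For Kera they were Cd63, Reep5, Timm17a, Psmd7 and Car13, with r from 0.93 to 0.95, and within groups from 0.62 to 0.73 with all libraries and from 0.056 to 0.45 without WT D0 replicate 2. Cd63, a tetraspanin of lysosomes and secreted vesicles, had means of 214, 294, 178 and 372 CPM in the same order of groups.

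Other genes of tendon and ligament were read from lists of regulators, matrix genes, sheath and progenitor genes, and relatives of the members, 52 tested genes in all without the 5 members. With injury averaged over genotypes, 38 of the 52 were called higher and 5 lower (limma, the study's rule), against 25.5% and 27.2% of all genes. Their median log2 difference was 1.29. Between genotypes at D7, 0 were called higher and 1 lower, against 1.18% and 4.53% of all genes, with a median of 0.18 beside 0.0077 over all genes. After adjustment limma called 0 of all genes in that comparison, where 958 had an unadjusted p under 0.05, edgeR called 0 and voom called 1 (Trem2). The highest D7 difference between genotypes among the 52 was that of Ogn, which encodes the leucine-rich protein mimecan, at 0.89 (standard error 0.45). It lay below Tnmd and Kera, and beside Scx at 0.91 (0.35), whose lowest value on leaving out 1 library was 0.76. Separation at D7 was not particular to Tnmd and Kera, as 3.55% of all tested genes had every Trem2-/- value above every WT value. The genes named next are examples among the 52 and not a result about tendon genes. Ogn was at least 366.1 CPM in Trem2-/- and at most 335 in WT joints, and Lox at least 965.4 and at most 947.3. Tnxb was separated the other way, at most 219.1 CPM in Trem2-/- and at least 221.5 in WT joints. Since Tnmd and Kera were chosen by the D7 difference between genotypes, their place at the top is fixed by the choice.

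Of 26 matrix genes, 22 were called higher and 0 lower with injury, with a median log2 difference of 2.69. Col11a1, a fibril-nucleating collagen of cartilage and tendon, rose by 4.15 (standard error 0.41, adjusted p = 2.14e-06, limma), and Col5a1, its partner in the control of fibril width, by 3.67 (0.37, adjusted p = 2.39e-06). The collagen VI genes Col6a1 and Col6a2, which form the network around cells, rose by 3.43 (0.34) and 3.46 (0.33). Each of the 5 members had a smaller difference than each of these collagens, which was not tested. At D0, 6 of the 26 were called lower in Trem2-/- joints (Col1a1, Col11a1, Col12a1, Fmod, Lum and Thbs2), and the list median was -0.78, which lies among the members' values of -0.48 to -0.87. The same rule called 2.15% of all genes at D0 in either direction, and 0 of the 26 passed adjustment (limma). At D7, 0 of the 26 were called between genotypes and the median was 0.27.

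Of 13 regulators, 8 were called higher and 1 lower with injury. Gdf5, a joint and tendon growth factor of the BMP family, rose by 3.06 on the log2 scale (standard error 0.29, adjusted p = 1.69e-06, limma). Tgfb2, a TGF-beta ligand needed for tendon progenitors, rose by 1.57 (0.33, adjusted p = 0.000851), and its receptor gene Tgfbr2 by 0.70 (0.13, adjusted p = 0.000321). None of the 13 was called between genotypes at D7, where the median was 0.10, and Gdf6 was called lower at D0. The highest D7 difference among the 13 was 0.43 (standard error 0.32) for Eya2, a transcriptional cofactor, close to the 0.53 (0.34) of Mkx, which ranged from 0.32 to 0.82 when single libraries were left out.

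Of 8 sheath and progenitor genes, 5 were called higher and 2 lower with injury. Cd248, a glycoprotein of stromal progenitors, rose by 2.37 (standard error 0.32, adjusted p = 2.27e-05, limma) and Pdgfra, a growth factor receptor of fibroblasts, by 1.47 (0.26, adjusted p = 0.000235). Dpp4 and Pi16, markers of an adventitial fibroblast state, fell by 1.02 (0.13) and 1.00 (0.14). Pi16 was the gene of the 52 that was called between genotypes at D7, by -0.54 (0.19, adjusted p = 0.558). It was opposite in sign to the members in both genotype comparisons, since it was also called higher in Trem2-/- joints at D0, at 149 ± 35.7 CPM against 98.0 ± 21.1 in WT (SD, n = 4).

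Of 10 close relatives of the members, 8 were called higher and 2 lower with injury, and 0 were called between genotypes at D7, with a median of -0.15. Lect1, the name in these data of chondromodulin (Cnmd), the only close relative of Tnmd and a cartilage gene, rose by 4.30 with injury (standard error 0.74, adjusted p = 0.000154, limma). Its mean was 308 ± 94.1 CPM at WT D7 and 212 ± 12.9 at Trem2-/- D7 (SD, n = 4), a log2 difference of -0.48 where that of Tnmd was 1.41. Lum, a corneal and tendon proteoglycan of the Kera family, rose by 2.47 (0.35, adjusted p = 3.28e-05), with means of 1394 ± 350 CPM at WT D7 and 1809 ± 411 at Trem2-/- D7. Among the thrombospondins, Thbs2 and Thbs3 rose by 2.65 (0.37) and 2.80 (0.31) with injury. Between genotypes at D7 Thbs2 differed by 0.61 (0.53), much as Thbs4 did at 0.64 (0.45), and was not called.

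**Figure D3:**
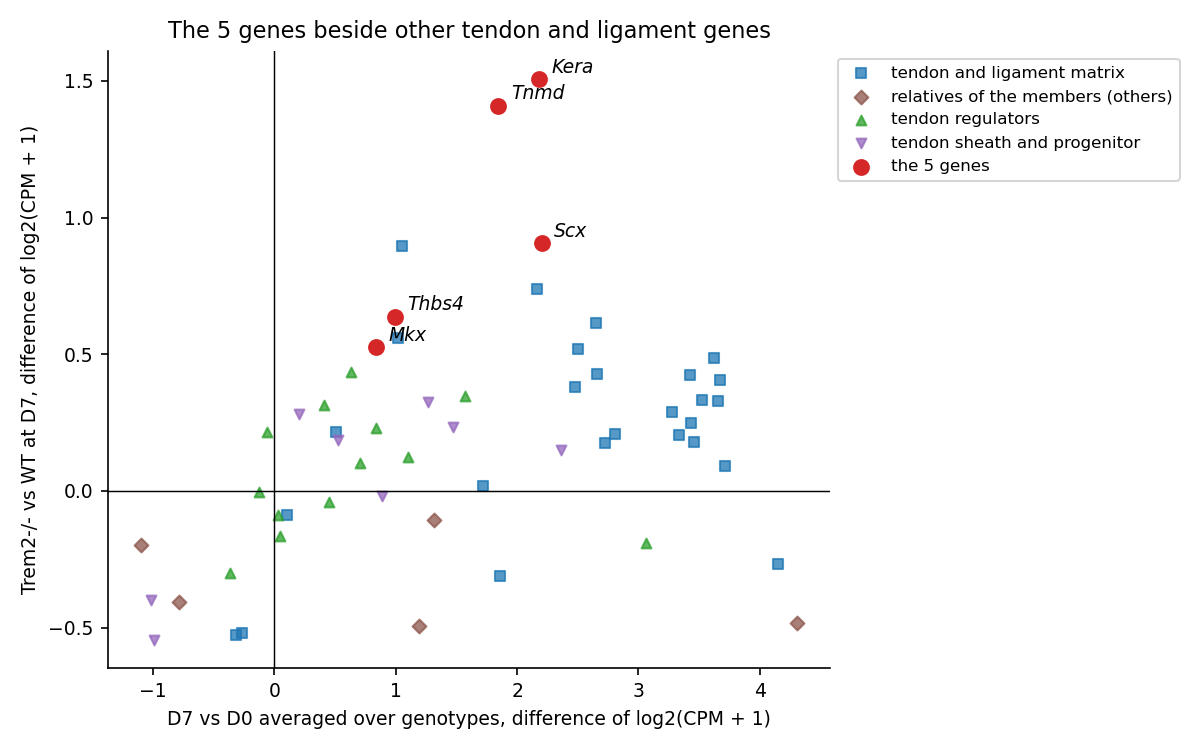
Each point is 1 gene, with the injury difference averaged over genotypes on the horizontal axis and the difference between Trem2-/- and WT joints at D7 on the vertical axis, both in log2(CPM + 1). Tnmd and Kera lie at the top by choice, at 1.41 and 1.51, while the matrix genes lie mostly to the right (median 2.69) and spread from -0.53 to 0.89 in the D7 genotype difference (median 0.27).

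Tnmd, Kera and Thbs4 were also set against a single matrix gene. Per 1000 CPM of Col1a1, the main collagen of tendon, bone and fibroblasts, Tnmd was 6.00 to 21.1 CPM at WT D0 and 1.87 to 4.31 at WT D7. It was 10.1 to 23.6 at Trem2-/- D0 and 4.98 to 6.85 at Trem2-/- D7. The D7 values were thus lower than the D0 values within each genotype, and those of Trem2-/- D7 joints lay above all those of WT D7 joints. Kera per 1000 CPM of Col1a1 had medians of 7.11 at WT D0, 1.95 at WT D7, 7.59 at Trem2-/- D0 and 4.04 at Trem2-/- D7, and the D7 ranges of 1.09 to 2.78 in WT and 3.42 to 5.55 in Trem2-/- joints did not overlap. Thbs4 did not show this, with 28.3 to 48.4 CPM at WT D7 and 32.4 to 73.8 at Trem2-/- D7. Both D7 separations use the mice that chose Tnmd and Kera.

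**Figure D4:**
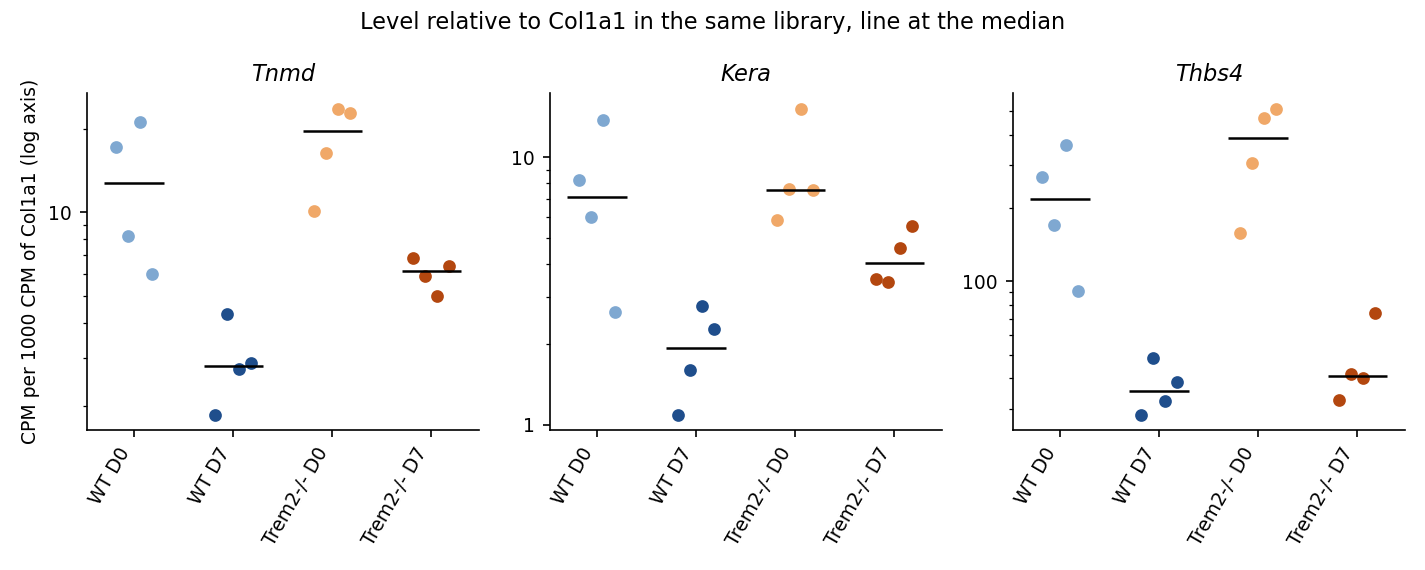
CPM of Tnmd, Kera and Thbs4 per 1000 CPM of Col1a1 in each of the 16 libraries (log axis, a scale of its own per gene), by group, with a line at the group median. WT D7 has the lowest median for each gene (2.80 for Tnmd, 1.95 for Kera), and Trem2-/- D7 lies above all WT D7 points for Tnmd and Kera but not for Thbs4.

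Markers of several other cell types also differed between the groups, though not those of every type. All 6 leukocyte markers were called lower with injury (median log2 difference -1.26) and all 6 were called lower in Trem2-/- than in WT joints at D7 (median -0.70), against 4.53% of all genes. Their summed level was 2344 to 4715 CPM at WT D0, 1394 to 2965 at WT D7, 2979 to 5024 at Trem2-/- D0 and 1059 to 1292 at Trem2-/- D7, so that Trem2-/- D7 joints were below every other joint, as they were above every other joint for Tnmd and Kera. The defining marker Ptprc, which encodes CD45, differed by -0.78 (standard error 0.25) between genotypes at D7. None of the 4 general fibroblast markers was called between genotypes at D7 (median 0.24), and their sum was 646 to 891 CPM at WT D7 and 842 to 926 at Trem2-/- D7. The 7 chondrocyte markers were all called higher with injury (median 4.31), with 0 called between genotypes at D7 and a median of -0.50. At D0, 5 of these 7 were called lower in Trem2-/- joints (median -1.70), as were 2 of 5 osteoblast markers (median -0.89). The rule called 2.15% of all genes there in either direction, and 0 after adjustment (limma). No marker on the other cell lists was called between genotypes at D0. Of 6 skeletal muscle markers 5 were called lower with injury, and 4 of 5 osteoblast markers higher, with 0 of either called between genotypes at D7. Of 4 synovial lining markers 3 were called higher and 1 lower with injury. Both adipocyte markers tested and 2 of 4 dividing-cell markers were called lower. Of 6 endothelial markers 0 were called with injury (median 0.09). Between genotypes at D7 none of these 4 lists held a called gene. The part of these changes in cell markers in the members' values was not tested.

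WT D0 replicate 2, the library lowest for the members, was also low for these connective tissue markers. Its summed general fibroblast markers were 125 CPM against 233 to 507 in the other WT D0 libraries, and its chondrocyte markers 349 CPM against 2309 to 10120. Its leukocyte markers, at 4214 CPM, lay within the range of the other 3, and its dividing-cell markers, at 990 CPM, lay above their 228 to 469 CPM. WT D0 replicate 4, highest for 3 of the 5 members, had the most Col1a1 of the D0 joints, at 18520 CPM against 1282 to 6018 in the other 7. These differences among uninjured joints bear on every value set against D0, and their part was not tested.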

How the data were processed

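Bulk RNA-seq libraries of 16 mice were analysed, 4 per group. The authors converted base calls with bcl2fastq, used STAR for alignment to mm10 (GRCm38), featureCounts for counting per gene and edgeR for normalization, and the deposited signal values are TMM-normalized CPM. Versions, annotation, strand setting and low-count filter are not given in the sources used here. The labels and the methods name different library kits. Dividing each deposited value by what 1 read is worth in its library gave whole numbers (100% of values, within 0.05 reads), which were taken as the counts. Fcgr1 was listed 2 times and counted once. No replicate pair agreed within counting error (chi-square over its degrees of freedom at least 10.43).

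Values were compared as log2(CPM + 1) in R 4.3.3 with limma 3.58.1 and its trended eBayes, with the 4 groups as one factor, for the 13173 genes of at least 1 CPM in at least 4 libraries. Fold changes on this scale understate those of low genes. A gene was called at p under 0.05 with a fold change over 1.25, with Benjamini-Hochberg adjusted p-values beside it. P-values measure the spread between these mice. Single values had exact two-sided permutation tests, whose smallest p is 0.0286 for 4 mice against 4. Genes named from each list are those with the smallest p (at most 4) among genes called for averaged injury or for genotype at D7, and the 5 most correlated genes are named for Tnmd and Kera; other named genes were chosen after their values were seen. 1 gene that the rule names is not reported here but is part of the list counts. The members and lists were chosen with earlier results of these data known. Positions are from GENCODE M21. Gdf7 and Cilp, of the tendon lists, were not tested. The fit was tested on simulated data. Alternatives were other pseudocounts, filters, normalizations and fits, a replicate block, each replicate left out, and edgeR 4.0.16 or voom on the recovered counts; leaving out WT D0 replicates 2 and 4 together was added after seeing the data.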

Additional observations from a re-analysis of the deposited data

Results flagged for a closer look

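Of 20 groups of 4 values (5 genes in 4 groups), 2 held a value far from the rest of its group, where chance gives about 1 in 20. Kera in WT D0 replicate 2, at 11.5 CPM, lay below its group by 0.947 of the group's range. Scx in WT D7 replicate 2, at 33.2 CPM, lay above its group by 0.894 of the range. Their causes were not tested.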

How the results depend on the processing

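All 5 members were called higher at D7, averaged over genotypes, under all 28 alternatives, and 41 to 44 of the 52 other tendon and ligament genes were called there in either direction, beside 43 in the reported fit. Under quantile normalization the adjusted p of Thbs4 was 0.0575 (limma). The genotype comparison at D0 was not stable. Of the members, 2 were called in the reported fit, 1 with only the compared groups, 0 with voom, 0 with an adjusted p-value, 4 without WT D0 replicates 2 and 4 together, and 0 to 5 when each library was left out in turn. Of the 52 other genes, 8 were called at D0, 3 with only the compared groups, 21 with edgeR, 16 without those 2 replicates, 0 with an adjusted p-value, and 2 (without WT D0 replicate 4) to 30 (without WT D0 replicate 2) on leaving out 1 library. At D7, 1 of the 52 was called between genotypes, 2 with a pseudocount of 0.1, 9 with only the compared groups, 3 with the replicate block, 2 with edgeR, 4 without those 2 replicates, 0 with an adjusted p-value, and 1 to 3 on leaving out 1 library. What caused these shifts was not tested.

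Deviations from the group means were compared between samples with the same replicate number. Over 24 pairs r ran from -0.509 to 0.406 (median 0.07), with 11 of them over 0.1. These values cannot show whether the numbers pair the mice, and the reported fit did not use them as pairs. Correlations without WT D0 replicate 2 were added after seeing the data. With the replicate number as a block, 5 members were called for injury and 2 at D0, and of the other genes 43 and 9. With a pseudocount of 5 the Scx difference between D7 and D0 in Trem2-/- joints was 2.16. No value turned its direction among those called.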
